A study of Mus musculus with 47 samples.

Results

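The tripartite motif (TRIM) family was taken as every gene whose symbol is Trim followed by a digit, which gave 69 of 51912 genes in the tables of bone marrow-derived macrophages (BMDMs), macrophages grown in culture from bone marrow. The same names were looked up in Raw264.7, a mouse macrophage-like cell line, whose 4 tables listed 37 members (Zmynd8 KO + D/E-A), 55 (Zmynd8 KO), 51 (p65 KO + K122R) and 51 (p65 KO). RNA-seq was analysed in 12 libraries of 47 samples, and the other 35 samples were not analysed here. Pml, Mid1 and Mid2 also encode TRIM proteins but carry other names, so they are not members and are given only for comparison.

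BMDMs on a C57BL/6 background came from Zmynd8 cKO mice, which carry a floxed Zmynd8 allele and Cre expressed from the Lyz2 locus, or from littermates called WT, which carry the floxed allele too. Cells of both genotypes were grown with 20 ng/ml M-CSF and left untreated (M0), or were given 100 ng/ml LPS (M1) or 20 ng/ml IL-4 (M2) for 6 h. LPS is a component of the bacterial outer membrane and IL-4 a cytokine of type 2 immunity. RNA of 3 biological replicates was mixed before each BMDM library was made. Raw264.7 lines were made with lentiviral guide RNAs: Zmynd8 KO, Zmynd8 KO with Zmynd8 put back, Zmynd8 KO with the D/E-A mutant (acidic residues of a disordered region changed to alanine), and 3 lines labelled lps, namely p65 KO, p65 KO + WT p65 and p65 KO + K122R (a p65 with 1 lysine changed to arginine). Every group has 1 library, so no difference has a replicate check, and each limit given below is a 95% Clopper-Pearson limit that covers counting error only.

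Most TRIM proteins have a RING domain, B-box domains and a coiled coil, and most are E3 ubiquitin ligases whose carboxy-terminal domain sets what they bind. Many are known as interferon-induced factors: TRIM5 restricts retroviruses, TRIM21 is an antibody receptor in the cytosol, and TRIM25 acts in signalling from the RNA sensor RIG-I. Others work elsewhere, such as TRIM24, TRIM28 and TRIM33, transcription cofactors of the TIF1 group that read or build repressed chromatin. ZMYND8 is a chromatin reader, and p65 (gene Rela) is an NF-κB subunit.

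Promoters with a match to an element through which interferon acts are shown first. Whether a match has a part in any value below was not tested. The interferon-stimulated response element (ISRE), searched on both strands as GAAA, any 2 bases and GAAA again, matched within 250 bases before to 50 after the start site in 3.44% of 32851 RefSeq promoters (GRCm38.p6) and in 10 of 67 promoters of 53 matched members. For each matched promoter of the 8 members outside the NHL group that had one, 30 bases around the match are given on the strand of the gene, with the match in capitals (it reads TTTC, any 2 bases, TTTC where it lies on the other strand). Overlapping matches run together in Trim21 and Trim26.
Trim21: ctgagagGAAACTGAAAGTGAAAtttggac
Trim34a: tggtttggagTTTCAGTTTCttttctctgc
Trim5: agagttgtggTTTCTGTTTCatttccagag
Trim12a: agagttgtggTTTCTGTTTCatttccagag
Trim12c: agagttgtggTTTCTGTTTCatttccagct
Trim30a: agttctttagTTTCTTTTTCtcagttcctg
Trim30a, second promoter: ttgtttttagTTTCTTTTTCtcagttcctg
Trim30d: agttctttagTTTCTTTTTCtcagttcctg
Trim26: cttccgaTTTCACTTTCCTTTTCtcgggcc

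The windows lie at chr7:102565447-102565476 (Trim21, minus strand), chr7:104244457-104244486 (Trim34a, plus), chr7:104288136-104288165 (Trim5, minus), chr7:104315466-104315495 (Trim12a, minus), chr7:104353359-104353388 (Trim12c, minus), chr7:104465210-104465239 (Trim30a, minus), chr7:104446104-104446133 (second Trim30a promoter, minus), chr7:104507871-104507900 (Trim30d, minus) and chr17:36836979-36837008 (Trim26, plus). Trim5 and Trim12a had the same 30 bases, as did Trim30d and the first of the Trim30a promoters. Trim30b, Trim30c, Trim25 and Trim56 had a promoter in the table with no match in this window, and were called lower at M0 as the 8 members with a match shown were. Trim6, Trim14, Trim23, Trim33, Trim35, Trim36 and Trim44 were called lower at M0 too, and no match was found for them. The tenth matched promoter was one of Trim2, an NHL-repeat member. Trim2 was tested at M0 and was not called (log2 -0.40, limits -1.05 to 0.23), so a match did not always go with a lower call.

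Of the 69 members, 10 had no count in any BMDM library, 17 had a mean between 0 and 10 counts, 42 had a mean of at least 10, and 32 had a mean of at least 100. The TRIM5-like cluster on chromosome 7 of mm10, from Trim6 to Trim30d (chr7:104218782-104507849), held 10 listed members, 8 of them with a mean of at least 100 counts. Of 12 members known from innate sensing, 10 reached that level (Trim31 had no count and Trim38 at most 2), and of 4 members of the TIF1 group, Trim24, Trim28 and Trim33 did. Members known from muscle or cytoskeleton were mostly at low counts: of 8, only Trim36 reached a mean of 100 and Trim46 a mean of 10.

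Library totals ranged from 22597425 to 28386646 counts in BMDMs and from 15127110 to 21042628 reads in the 6 lines. The 8 macrophage markers used for the check (9 table rows) were above 0 in each BMDM library, and neutrophil markers summed to 2.33 to 4.30 CPM (counts scaled to the library total) in M0 and M1 but to 394 and 524 CPM in M2. Both M2 libraries also carry other sequencing sample numbers than the 4 of M0 and M1, so that difference and IL-4 cannot be told apart. The whole-gene count of Zmynd8 did not separate the genotypes (2284 against 1842 in M0, 1967 against 2033 in M1, 3636 against 3944 in M2, WT first). It includes exons outside the floxed ones and so checks the labels in neither direction. Lyz2, the gene that carries Cre, was lower in each library labelled Zmynd8 cKO, by 0.60, 1.25 and 0.77 on the log2 scale in M0, M1 and M2.

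Added over all members, the family took 2126 CPM in WT M0, 1448 in cKO M0, 3367 in WT M1, 3625 in cKO M1, 1802 in WT M2 and 2137 in cKO M2. On CPM the order of states was thus M1 highest in both genotypes, while M0 exceeded M2 in WT and M2 exceeded M0 in cKO. Summed as the authors' TPM, which is scaled by transcript length, M2 was highest in both genotypes. In M0, M1 and M2 the TPM sums were 1090, 1596 and 1739 in WT and 715, 1812 and 1955 in cKO. Per length, on the authors' TPM scale, the highest members were Trim14 (143 TPM), Trim30a (117) and Trim28 (104) in WT M0, and Trim30a (283), Trim14 (210) and Trim30c (191) in WT M1. In WT M2 the highest was Trim24 (905 TPM), followed by Trim28 (104). The cKO libraries were led by Trim28 in M0 (120 TPM), Trim30a in M1 (348) and Trim24 in M2 (969).

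**Figure D1:**
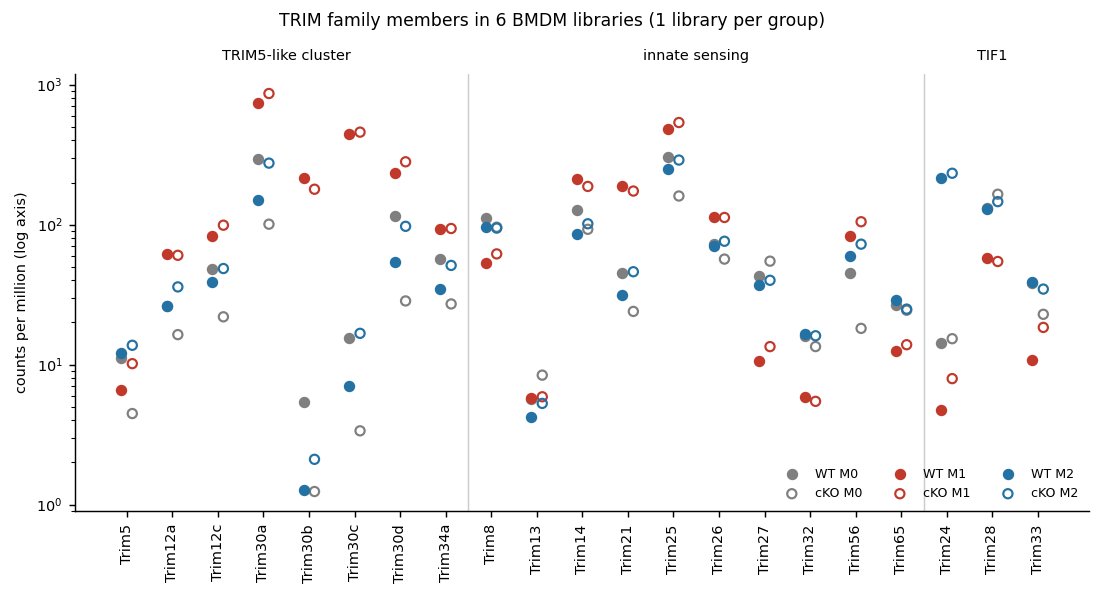
Level of 21 members in the 6 BMDM libraries, in CPM on a log axis. Filled points are WT and open points Zmynd8 cKO, coloured by state, with 1 library per point and no error bar. Trim30b and Trim30c are at 1.24 to 16.7 CPM in M0 and M2 and at 179 to 458 CPM in M1, and Trim24 is at 214 and 233 CPM in M2 alone.

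The first question was whether loss of Zmynd8 moved these genes without a stimulus. At M0 the 9 members of the TRIM5-like cluster that were tested were lower in the Zmynd8 cKO library, and members of other roles were called in both directions. A member was called when its mean was at least 10 counts, its ratio was at least 1.2-fold, and its limits left out a ratio of 1. By that rule 25 of 41 members tested were called, 6 higher and 19 lower, while 50% of all 12463 genes tested were called (22.9% higher and 27.0% lower). The edgeR exact test with an assumed dispersion called 4 of them, Trim30a, Trim30b, Trim30c and Trim30d, against 2.19% of all genes. At a fold of at least 2 the members called were 1 higher and 9 lower, against 7.94% of all genes (3.08% higher and 4.85% lower). The median log2 ratio was -0.30 over the 41 members and -0.02 over all genes tested.

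All 9 members of the TRIM5-like cluster that passed the filter were called lower at M0, with a median log2 ratio of -1.43. Trim30a, an interferon-induced regulator of inflammatory signalling, was at 296 CPM in WT and 101 CPM in cKO, a 2.94-fold difference (log2 -1.56, limits -1.62 to -1.49). Trim30d was at 114 and 28.5 CPM (log2 -2.0, limits -2.13 to -1.88). Trim30c, at 15.5 against 3.36 CPM, and Trim30b, at 5.42 against 1.24 CPM, differed 4.62-fold and 4.37-fold. These 4 paralogs, neighbours on chromosome 7, had the lowest ratios of the family at M0.

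The other cluster members had ratios nearer to 0. Trim5, named after the retroviral restriction factor, was at 11.1 and 4.47 CPM (log2 -1.32, limits -1.66 to -0.99), Trim12c at 48.4 and 21.9 CPM (log2 -1.14), Trim34a at 57.1 and 27.1 CPM (log2 -1.07), and Trim12a at 26.3 and 16.4 CPM (log2 -0.69). Counts of some of these genes are uncertain, because near-identical copies can share reads. Of the 50-base stretches of their transcripts, 29.5% of Trim5, 28.8% of Trim12c and 39.8% of Trim34a also occur in another member, against 5.98% for Trim30a, 7.49% for Trim30d, 0.66% for Trim30c and 0.41% for Trim30b. Of the members on the same chromosome but outside the cluster that were tested, Trim21 was called lower and Trim28 higher (values below), and Trim3 (26.9 and 25.6 CPM) and Trim68 (3.09 and 3.54 CPM) were not called.

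Of the 10 innate sensing members tested at M0, 5 were called lower and 2 higher, against 27.0% and 22.9% of all genes. Trim56, known for a role in antiviral signalling, was lower by the most, at 45.4 CPM in WT and 18.1 CPM in cKO (log2 -1.32, limits -1.49 to -1.16). Trim25 was at 304 and 160 CPM (log2 -0.92, limits -0.98 to -0.87), and Trim21 at 45.4 and 24 CPM (log2 -0.92, limits -1.07 to -0.77). Trim14, a mitochondrial adaptor in antiviral signalling, was at 127 and 92.6 CPM (log2 -0.46), and Trim26 at 72.5 and 56.7 CPM (log2 -0.35). Trim13 (5.65 and 8.41 CPM) and Trim27 (43.2 and 54.8 CPM) were the 2 called higher, while Trim8 (111 and 95.9 CPM), Trim32 (16 and 13.5 CPM) and Trim65 (26.6 and 24.5 CPM) were not called.

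The TIF1 members parted at M0. Trim33, a cofactor of SMAD proteins, was called lower (38.0 against 22.9 CPM, log2 -0.73), Trim28, the corepressor of KRAB zinc finger proteins, was called higher (132 against 165 CPM, log2 0.32), and Trim24 was not called (14.3 against 15.3 CPM). Among the remaining members, Trim36, Trim44, Trim23 and Trim35 were called lower, and Trim47, Trim29 and Trim46 higher. The interferon-response genes, a list of 28 such as Ifit1 and Irf7, were called lower 28 of 28 times in the same pair of libraries, with a median log2 ratio of -1.56. Pml, a TRIM protein of nuclear bodies that interferon also induces, was called lower too (log2 -1.08). Macrophage markers summed to 18279 CPM in WT M0 and 14671 CPM in cKO M0. Xist, an RNA made from the inactive X chromosome of females, had 19386 counts in WT M0 and 7310 in cKO M0 (6133 to 31447 over the 6 BMDM libraries). The part of either in these values was not tested. In these bulk libraries, fewer cells with a transcript and less of it per cell cannot be told apart.

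At M1, 9 of the members called lower at M0 were called higher in cKO, or 23.1% of the 39 members tested in both states against 11.3% of all genes, while Trim6 was lower and Trim27 higher in both. Of these 9, Trim30d and Trim12c were no longer called at M1 with median-ratio or TMM scaling. After LPS, 13 of 42 members tested were called, 11 higher and 2 lower in cKO, against 29.9% of all genes tested (19.5% higher and 10.5% lower). Only Trim36 was called at a fold of 2, as were 4.34% of all genes, and the edgeR exact test with an assumed dispersion called 0 members, against 0.299% of all genes. With median-ratio or TMM scaling the members called were 9 higher and 4 lower, against 16.6% and 13.1% of all genes with the former and 16.4% and 13.2% with the latter. Over the members the median log2 ratio was 0.15, and over all genes 0.04.

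In the cluster, Trim5 (6.55 against 10.2 CPM, log2 0.63), Trim30d (232 against 281 CPM, log2 0.28) and Trim12c (82.3 against 99.1 CPM, log2 0.27) were called higher in cKO at M1, and Trim6 lower (8.47 against 4.95 CPM, log2 -0.78). With median-ratio factors Trim30d and Trim12c were not called (log2 0.24 and 0.23) and Trim30b was called lower (log2 -0.30). Trim30a (741 and 865 CPM), Trim30c (442 and 458 CPM), Trim30b (214 and 179 CPM), Trim12a (61.8 and 60.4 CPM) and Trim34a (92.9 and 93.9 CPM) were not called on library totals. Trim21 (190 and 174 CPM) and Trim25 (483 and 537 CPM) were not called either, and Trim56 (82.4 and 105 CPM, log2 0.35) and Trim27 (10.7 and 13.4 CPM, log2 0.33) were called higher. The other innate sensing members, Trim8, Trim13, Trim14, Trim26, Trim32 and Trim65, were not called at M1, with log2 ratios from -0.18 to 0.21.

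Members of other kinds were called at M1 too, and Trim36 differed most among the called members. Trim36, a ligase known from the cytoskeleton, was at 2.13 and 5.89 CPM (log2 1.47, limits 1.00 to 1.95), and Trim23, a ligase with an ARF domain, at 4.22 and 7.55 CPM (log2 0.84). Trim33 (10.7 and 18.4 CPM, log2 0.78), Trim24 (4.74 and 7.94 CPM, log2 0.74) and Trim44 (13.9 and 22.9 CPM, log2 0.72) were also called higher, as was Trim35 (99.1 and 124 CPM, log2 0.32), and Trim17 was called lower (6.22 and 3.97 CPM, log2 -0.65). Trim28 was not called (57.6 and 54.5 CPM). Of the 28 interferon-response genes, 7 were called lower at M1 and none higher. Macrophage markers summed to 13288 CPM in WT M1 and 9593 CPM in cKO M1, and their part in these values was not tested.

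At M2 the direction at the cluster was opposite to that at M0. Of 41 members tested 13 were called, 10 higher and 3 lower in cKO, against 27.1% of all genes (15.2% higher and 11.8% lower). Only Trim30c was called at a fold of 2, against 6.12% of all genes, and the edgeR exact test called 0 members, against 1.21%. Of the 9 cluster members tested 7 were called higher and none lower, with a median log2 ratio of 0.56 against 0.01 over all genes.

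Trim30c was at 7.01 CPM in WT M2 and 16.7 CPM in cKO M2 (log2 1.25, limits 1.01 to 1.5). Trim30a stood at 150 and 275 CPM (log2 0.88, limits 0.82 to 0.93), Trim30d at 53.9 and 97.3 CPM (log2 0.85), Trim34a at 34.7 and 51.1 CPM (log2 0.56), Trim12a at 26.3 and 35.9 CPM (log2 0.45) and Trim12c at 38.7 and 48.6 CPM (log2 0.33). Trim30b rested on few counts, 36 and 55 (log2 0.73, limits 0.10 to 1.38). Trim5 was not called at M2 (12 and 13.7 CPM).

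Trim21 (31.6 and 46.1 CPM, log2 0.55) and Trim56 (59.4 and 72.5 CPM, log2 0.29) were the innate sensing members called higher at M2, and Trim25 (251 and 289 CPM), Trim14 (85.8 and 101 CPM) and the other 6 were not called. Trim16, Trim68 and Trim62 were the 3 called lower, at log2 -0.79, -0.60 and -0.47. Of 28 interferon-response genes 25 passed the rule upward (median log2 ratio 0.82), and Pml and Mid1 were called higher too (log2 0.51 and 0.27). The difference between the states was not tested, since each state has 1 library of each genotype. Neutrophil markers summed to 394 CPM in WT M2 and 524 CPM in cKO M2 and macrophage markers to 18580 and 14816 CPM, and their part in these values was not tested.

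**Figure D2:**
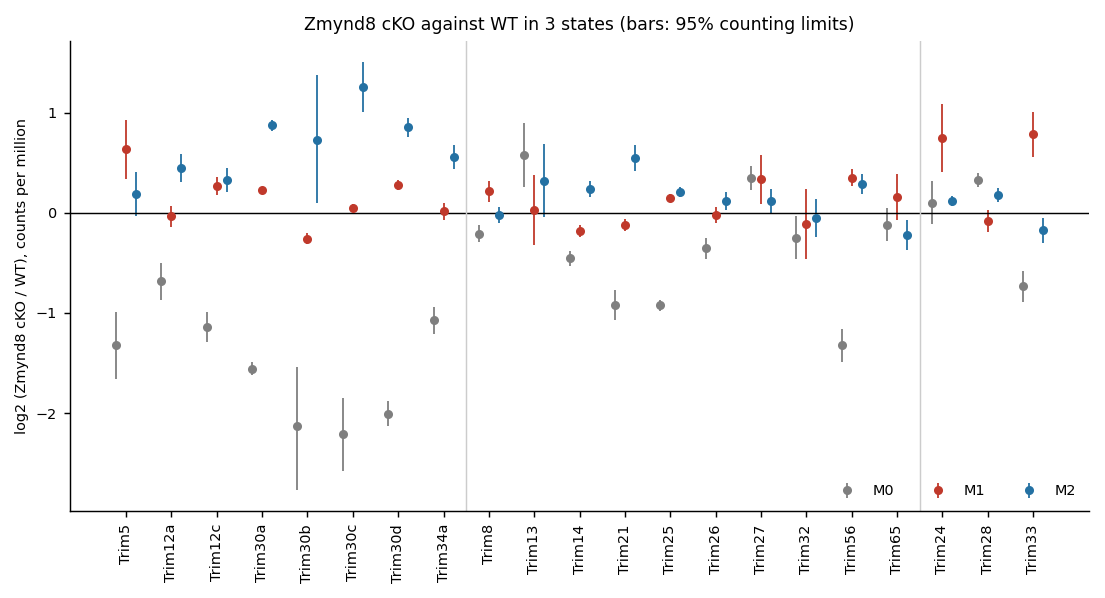
Log2 ratio of Zmynd8 cKO to WT for 21 members at M0, M1 and M2, on CPM, with 95% counting limits as bars; grey lines part the TRIM5-like cluster, the innate sensing members and the TIF1 members. All 8 cluster members shown lie below 0 at M0, from -2.21 to -0.69, and above 0 at M2, from 0.19 to 1.25.

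LPS split the family, and the split depends on the scaling. In WT, 8 members were called higher and 18 lower at a fold of at least 2 among 41 tested, against 53% of all genes called (13.7% higher and 39.3% lower). The median of all genes tested was itself at log2 -0.70, and with median-ratio size factors, which bring that median to 0.01, the members split into 14 higher and 9 lower, against 22.1% and 20.2% of all genes. In cKO the members split into 14 higher and 12 lower among 42 tested, against 55% of all genes called (15.9% higher and 39.1% lower), and into 15 and 6 with median-ratio factors, against 24.6% and 21.8% of all genes. The median of all genes in cKO was at log2 -0.65 on library totals. Ratios below are on library totals unless said otherwise.

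Most of the rises after LPS were in the cluster. In WT, 6 of its 9 tested members were called higher and none lower, and in cKO 9 of 9 were called higher, with medians of 1.23 and 2.90. Trim30b went from 5.42 to 214 CPM in WT, 39.5-fold (log2 5.30, limits 5.06 to 5.56), and from 1.24 to 179 CPM in cKO, 145-fold (log2 7.18, limits 6.64 to 7.77). Trim30c rose 28.5-fold in WT (log2 4.83) and 136-fold in cKO (log2 7.09), and its level after LPS was 442 CPM in WT and 458 CPM in cKO. The folds in cKO start from the lower M0 level described above.

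Trim30a rose 2.5-fold in WT and 8.58-fold in cKO, and Trim30d 2.03-fold and 9.87-fold. Trim6, at the edge of the cluster, rose 4.72-fold and 7.46-fold, to 8.47 and 4.95 CPM. Trim12a rose 2.35-fold and 3.69-fold. Trim34a, Trim12c and Trim5 passed the fold in cKO only, at log2 1.79, 2.17 and 1.18, against 0.70, 0.77 and -0.77 in WT. With median-ratio factors Trim34a and Trim12c passed it in WT as well (log2 1.41 and 1.47), while Trim5 was at -0.06.

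Trim21 was the innate sensing member that rose most after LPS, 4.18-fold in WT (45.4 to 190 CPM) and 7.25-fold in cKO (24 to 174 CPM). Trim25, Trim14 and Trim56 passed the fold in cKO, at log2 1.74, 1.02 and 2.53, and in WT only with median-ratio factors, at 1.37, 1.45 and 1.57. Trim26 did so with median-ratio factors only, at log2 1.36 in WT and 1.65 in cKO. Trim17, outside these lists, rose from 11 to 155 counts in WT (log2 3.89) and from 4 to 93 in cKO (log2 4.49), and 17.7% of its 50-base stretches also occur in a transcript of Hist3h2a.

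The falls after LPS were in members outside the cluster. Trim47, a ligase best known from endothelium and tumours, went from 45.2 to 3.13 CPM in WT and from 56.4 to 2.48 CPM in cKO, 14.4-fold and 22.8-fold lower. Trim44 went from 85.9 to 13.9 CPM in WT (log2 -2.63) and from 59.9 to 22.9 CPM in cKO (log2 -1.39), where it no longer passed the fold with median-ratio factors (log2 -0.73). Trim37, a centrosome ligase, went from 19 to 4.42 CPM and from 16.9 to 4.87 CPM, and Trim36 from 8.47 to 2.13 CPM in WT (log2 -1.99, and -1.29 with median-ratio factors), where in cKO it was not called (4.87 and 5.89 CPM). Trim2 and Trim16, at low levels, fell 8.71-fold and 5.63-fold in WT and 6.22-fold and 5.92-fold in cKO.

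Of the 10 innate sensing members, 4 were called lower in WT and 2 in cKO, where 39.3% and 39.1% of all genes were. Trim27 went from 43.2 to 10.7 CPM in WT and from 54.8 to 13.4 CPM in cKO, and Trim32 from 16 to 5.90 CPM and from 13.5 to 5.46 CPM (log2 -1.44 and -1.30). Trim8 (111 to 53.3 CPM, log2 -1.05) and Trim65 (26.6 to 12.4 CPM, log2 -1.10) were called lower in WT and were at log2 -0.63 and -0.82 in cKO. With median-ratio factors Trim8, Trim32 and Trim65 were not called in either genotype (log2 -0.35, -0.73 and -0.39 in WT and 0.03, -0.64 and -0.16 in cKO). Trim13 was not called (log2 0.03 in WT and -0.51 in cKO).

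All 3 TIF1 members passed the fold downward in WT, and Trim28 alone did in cKO. Trim28 went from 132 to 57.6 CPM in WT and from 165 to 54.5 CPM in cKO (log2 -1.19 and -1.60), Trim33 from 38.0 to 10.7 CPM and from 22.9 to 18.4 CPM (log2 -1.83 and -0.31), and Trim24 from 14.3 to 4.74 CPM and from 15.3 to 7.94 CPM (log2 -1.59 and -0.95). With median-ratio factors Trim33 in WT was the only one of these called (log2 -1.12), and Trim33 in cKO turned to log2 0.35. Whether the genotypes differed in these responses was not tested.

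After IL-4 the largest rise among the members was that of Trim24. Trim24 rose from 14.3 to 214 CPM in WT, 15.0-fold (log2 3.90, limits 3.75 to 4.06), and from 15.3 to 233 CPM in cKO, 15.2-fold (log2 3.93, limits 3.77 to 4.09). It was the sole member called higher in WT, where 5 were called lower among 42 tested, against 24.1% of all genes called (15.5% higher and 8.57% lower). Trim24 lies at chr6:37869880-37968445 on the plus strand (ENSMUSG00000029833). Its promoter held no match on either strand to the STAT6-type motif (TTC, any 4 bases, GAA), which 6.95% of promoters hold.

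The size of the Trim24 change differed between the deposited scales. Its TPM was 6.48 in WT M0 and 16.4 in cKO M0 but 905 and 969 at M2, a wider gap than the 15.0-fold that counts gave in WT. Relative to the library's median gene, its TPM per CPM was 0.76 in WT M0, 2.12 in cKO M0, 0.65 in WT M1, 2.32 in cKO M1, and 7.02 and 6.99 in M2. TPM is divided by the length of the transcripts the reads were given to, so a higher value means that a shorter length was used for it. Trim24 was the only one of 38 members whose highest and lowest value of this quantity differed over 2-fold, which 491 of 10988 genes did. Which transcript carries the reads was not analysed here. Over all its transcripts together, 3.62% of its 50-base stretches occur in another gene. The share within a single shorter transcript was not measured and can be higher. Estimated counts of Trim24 were fractional in all 6 BMDM libraries.

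Away from Trim24, Trim30c and Trim30d were called in opposite directions with IL-4 in the 2 genotypes. In WT, Trim30b, Trim30c and Trim30d were called lower (log2 -2.09, -1.15 and -1.08), and Trim30a, at log2 -0.98, just missed the fold (296 to 150 CPM) and passed it with median-ratio factors (log2 -1.15). The other cluster members were not called in WT, Trim5 being at 11.1 and 12 CPM and Trim12a at 26.3 CPM in both states. In cKO, 7 of 9 cluster members were called higher, among them Trim30c (3.36 to 16.7 CPM, log2 2.31), Trim30d (28.5 to 97.3 CPM, log2 1.77) and Trim30a (101 to 275 CPM, log2 1.45). In cKO 15 of 41 members were called in all, 10 higher and 5 lower, against 29.1% of all genes (20.5% higher and 8.55% lower). At a fold of 1.2, 21 members were called with IL-4 in WT and 28 in cKO, against 61.8% and 68.2% of all genes. With median-ratio factors, where 16.9% of all genes were called higher, 5 of these 7 still passed the fold, and Trim12a and Trim12c were at log2 0.95 and 0.96. The levels in cKO M2 and WT M0 were 275 and 296 CPM of Trim30a, 97.3 and 114 CPM of Trim30d, 16.7 and 15.5 CPM of Trim30c, 2.1 and 5.42 CPM of Trim30b, and 35.9 and 26.3 CPM of Trim12a.

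Trim56 and Trim36 passed the fold upward in cKO only. Trim56 went from 18.1 to 72.5 CPM there (log2 2.0) and from 45.4 to 59.4 CPM in WT (log2 0.39). It was the sole innate sensing member called with IL-4 in either genotype. Trim16 was called lower in cKO, from 7.08 to 2.79 CPM. Trim36 went from 4.87 to 16.5 CPM in cKO and from 8.47 to 16.5 CPM in WT (log2 1.76 and 0.96). Trim35, known from macrophages, fell in both genotypes, from 246 to 71.1 CPM in WT (log2 -1.79) and from 200 to 91.5 CPM in cKO (log2 -1.13). Trim29, at low counts, also passed the fold in both, from 38 to 2 counts in WT and from 52 to 6 in cKO. Trim47 passed it in cKO (log2 -1.47) and, with median-ratio factors only, in WT (log2 -0.92 on library totals and -1.08). Of the interferon-response genes, 15 of 28 were called lower with IL-4 in WT and none higher, and 19 were called higher in cKO and none lower.

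**Figure D3:**
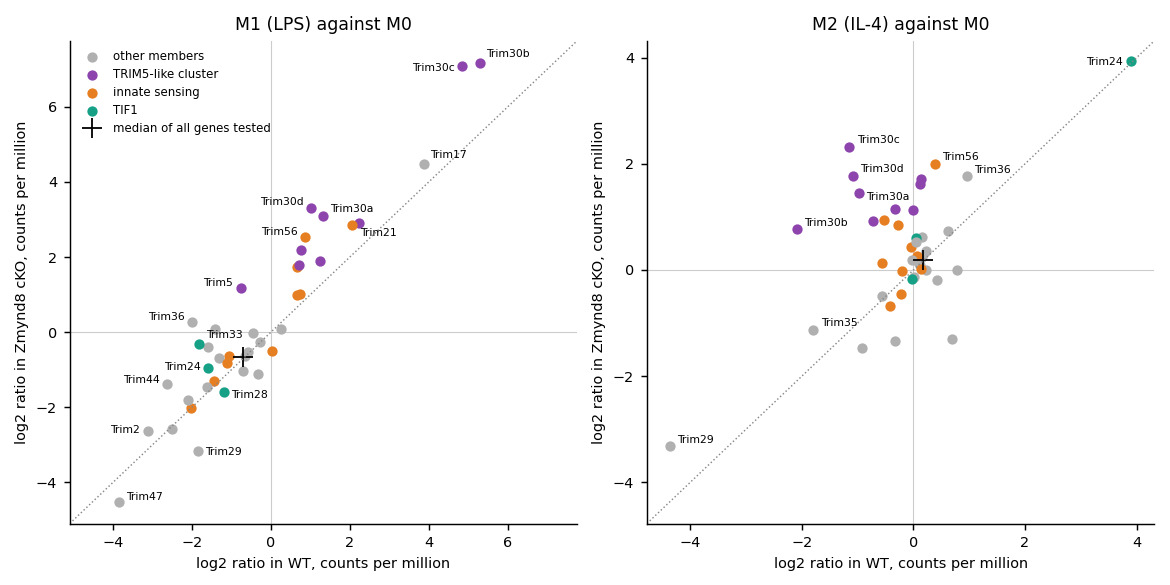
Log2 ratio of M1 (left) and M2 (right) to M0 in WT (horizontal axis) against Zmynd8 cKO (vertical axis), on CPM, for members tested in both; the cross marks the median of all genes and the dotted line equal ratios. Trim30b and Trim30c lie at 4.83 to 5.30 in WT and at 7.09 and 7.18 in cKO after LPS, and Trim24 at 3.90 and 3.93 after IL-4. The Trim30 genes lie left of and above 0 after IL-4.

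The 6 libraries labelled Raw264.7 fell into 2 sets. The 3 of the Zmynd8 lines held 7109 to 8467 reads of Xist and 8 of 8 neutrophil markers, summed to 4435 to 10364 RPM (recovered reads scaled to the library total). The 3 of the p65 lines held 0 to 3 reads of Xist and at most 0.38 RPM of those markers. Raw264.7 came from a male mouse, so the Zmynd8 line libraries go against their label and are called by it only for identification. For that reason, and because the tables were normalized separately, no ratio was taken between the 2 sets.

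Levels of cluster members differed between the 2 sets on the RPM scale. Trim12a had 1558 to 1953 reads in the Zmynd8 line libraries and is not listed for the p65 lines, whose tables list no gene with 0 reads in both libraries. Trim5 had 179 to 288 reads in the former and 3 to 6 in the latter, and Trim30b 745 to 945 and 10 to 36. Trim34b ran the other way, with 5 to 13 reads where listed and 291 to 335, and shares 56.8% of its 50-base stretches with Trim34a. Trim30a was high in all 6, from 647 to 1093 RPM.

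**Figure D4:**
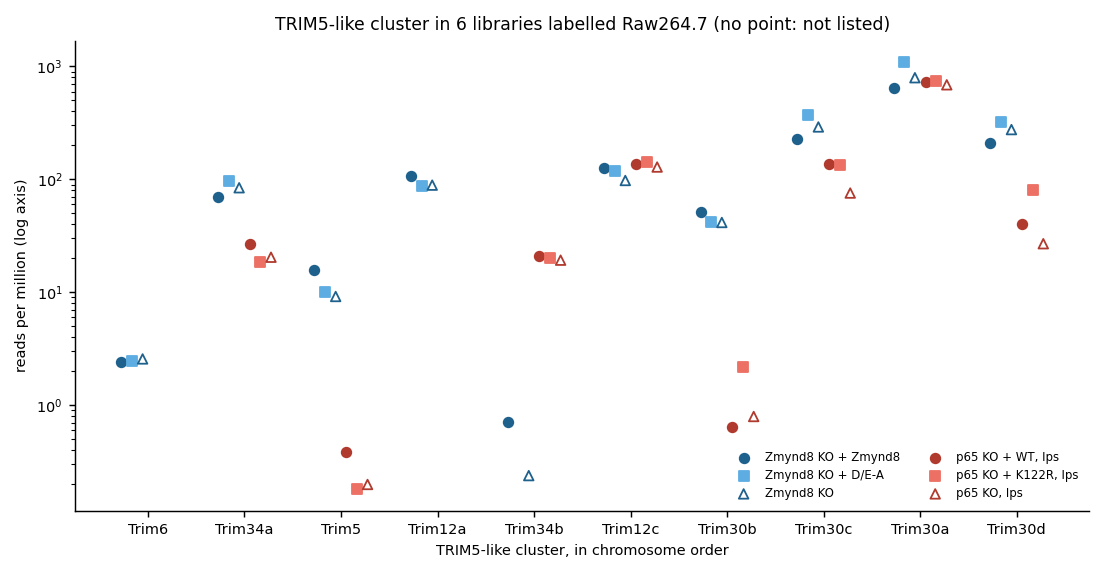
RPM, on a log axis, of 10 members of the TRIM5-like cluster in chromosome order in the 6 libraries labelled Raw264.7, blue for the Zmynd8 lines and red for the p65 lines, 1 library per point; a member without a point is not listed for that library. Trim30a and Trim12c lie at like levels in all 6, while Trim5, Trim12a and Trim30b are low or absent in the p65 lines.

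The D/E-A mutant was compared with Zmynd8 put back, in Zmynd8 KO cells. The labels name no treatment for these libraries, and the study describes LPS for its rescue cells. Of 37 members listed, 20 were called higher and 3 lower with D/E-A, against 63% of all genes (33.4% higher and 29.6% lower), and on library totals the split was 20 to 6, against 31.7% and 31.3% of all genes. Over the members the median log2 ratio was 0.41 and over all genes 0.02, and only Trim36 was called at a fold of 2, against 18.6% of all genes. The edgeR exact test called 0 members here and 0 in the Zmynd8 KO, against 6.93% and 1.04% of all genes. The table lists only genes with at least 21 reads in the Zmynd8 library.

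By recovered reads, given in the order Zmynd8, D/E-A, Zmynd8 KO, Trim30a had 11894, 19602 and 16724, Trim30c 4220, 6662 and 6126, and Trim30d 3901, 5750 and 5806. On the deposited values D/E-A exceeded Zmynd8 by log2 0.79 (limits 0.75 to 0.82), 0.73 and 0.63, and Zmynd8 KO exceeded it by 0.37, 0.42 and 0.45. Trim5 was lower in both, at 288, 179 and 193 reads (log2 -0.62 and -0.70), and Trim30b was called lower with D/E-A only (log2 -0.28 and -0.24). Both comparisons share the Zmynd8 library.

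Of the 10 innate sensing members 8 were called higher with D/E-A and none lower, against 33.4% and 29.6% of all genes. On library totals Trim27 was called lower (log2 -0.27). Trim14 had 2500, 4373 and 4114 reads (log2 0.87 with D/E-A and 0.60 in the KO), Trim21 2462, 3820 and 3685 (log2 0.70 and 0.46), and Trim25 7831, 11287 and 9928 (log2 0.59 and 0.22). Trim36 had 278, 535 and 430 reads (log2 1.01 and 0.51), Trim23 75, 142 and 139 (log2 0.99 and 0.77), and Trim35 1256, 2343 and 2028 (log2 0.97 and 0.57). Trim33 was higher in both (log2 0.72 and 0.45), whereas Trim28 was not called in either (log2 -0.24 and -0.10) and was called lower with D/E-A on library totals (log2 -0.28).

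In the Zmynd8 KO library without rescue, 19 of 41 members tested were called, 17 higher and 2 lower, against 47.5% of all genes (27.9% higher and 19.5% lower). Only Trim68, at 13 and 32 reads, was called at a fold of 2, against 10.6% of all genes. Trim5 and Trim12c were the 2 called lower (log2 -0.70 and -0.30). The deposited value of Zmynd8 itself was 116 in the KO, where it was not a whole number of reads, and 506 with Zmynd8 put back. Markers of cell type moved with these ratios: macrophage markers summed to 4978, 9447 and 6388 RPM in the same order, and neutrophil markers to 10364, 4435 and 6978. Reads of the ribosomal RNA gene Rn18s-rs5 numbered 2526916, 1166166 and 2343165 in that order. The part of these in the results with D/E-A and in the KO was not tested.

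In the p65 lines Rela had 1601 reads with WT p65, 5850 with K122R and 765 in the KO. In the same order Rn18s-rs5 had 28068, 84832 and 31028 reads and Zmynd8 had 1826, 1070 and 1624. The part of these in the values below was not tested. The column used for WT p65 is headed as WT with lps and does not name the KO, so unmodified cells cannot be told apart from rescued ones. With K122R, 23 of 41 members tested were called, 9 higher and 14 lower, against 40.8% of all genes (19.8% higher and 21.0% lower). On library totals, which put the median of all genes at log2 -0.17, they were 7 higher and 18 lower, against 13% and 32.1% of all genes. At a fold of 2 they were 4 higher and 4 lower, against 8.98% of all genes (4.45% higher and 4.53% lower).

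Trim2, an NHL-repeat ligase known from neurons, had 239 reads with WT p65, 36 with K122R and 264 in the KO, so it was called lower with K122R (log2 -2.68, limits -3.22 to -2.17) and was not called in the KO (log2 0.19). The edgeR exact test called it too, as the only member, against 2.26% of all genes. Trim30d had 625, 1337 and 407 reads in that order, higher with K122R (log2 1.15, limits 1.01 to 1.29) and lower in the KO (log2 -0.57). Trim13 had 156, 239 and 113 reads (log2 0.67 and -0.42). Trim35 had 904, 1638 and 852 (log2 0.91 and -0.04). Trim59 (830, 435 and 696), Trim37 (679, 401 and 498) and Trim28 (3871, 2705 and 3597) were called lower with K122R (log2 -0.88, -0.70 and -0.46), as were Trim11 and Trim44 (log2 -0.47 and -0.46), while Trim8 and Trim41 were called higher (log2 0.43 and 0.41), the latter not on library totals. Trim34a, in the cluster, was lower in both (419, 308 and 309 reads, log2 -0.39 and -0.39). Of the innate sensing members, Trim26 was lower with K122R (2550 and 2006 reads, log2 -0.29) and Trim14 higher (1832 and 2140, log2 0.28), the latter not on library totals. At lower counts, Trim65 (92, 28 and 73 reads, log2 -1.66), Trim46 (42, 109 and 45, log2 1.43) and Trim30b (10, 36 and 12, log2 1.90, limits 0.86 to 3.08) passed a fold of 2 with K122R. So did Trim16 upward (38 reads with WT p65 and 81 with K122R, log2 1.15). Trim42 (18 and 4 reads, log2 -2.11) and Trim62 (16 and 4, log2 -1.94) passed it downward.

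In the p65 KO, 8 of 41 members were called, none higher and 8 lower, against 24.1% of all genes (11.9% higher and 12.2% lower), and none was called at a fold of 2, as 4.0% of all genes were. The edgeR exact test with an assumed dispersion called 0 members in this comparison, against 0.193% of all genes. Trim30c was lowest, with 2124 reads with WT p65 and 1144 in the KO (log2 -0.84, limits -0.95 to -0.74), followed by Trim30d, Trim43c, Trim11 and Trim13. Trim30c with K122R, at 2243 reads, was not called (log2 0.13). Trim30a (11431, 12503 and 10407 reads), Trim25 (13235, 15109 and 12873) and Trim21 (733, 614 and 711) were called in neither comparison, except Trim21 with K122R on library totals (log2 -0.34).

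**Figure D5:**
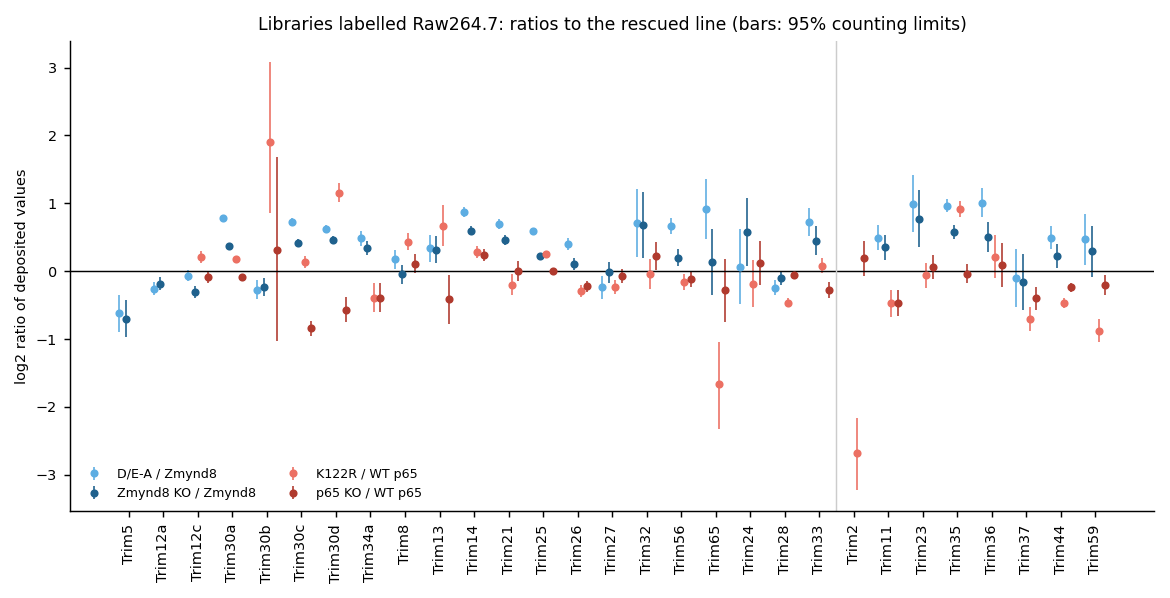
Log2 ratio of deposited values to the library with the WT protein put back, for members tested in each comparison, with 95% counting limits as bars; blue points share the Zmynd8 library and red points the WT p65 library, and members right of the grey line belong to other lists. Blue points lie above 0 for most innate sensing members, Trim2 with K122R is at -2.68, and Trim30c and Trim30d in the p65 KO are at -0.84 and -0.57.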

How the data were processed

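RNA was measured by polyA RNA-seq in 12 libraries, with 1 library per group. Per the study's methods, single-end HiSeq reads were aligned with TopHat to the mm10 transcriptome. The submitters' processing notes also list CASAVA 1.4, Bowtie 0.12.2, and both mm8 and mm10. Strand use in counting is not given in the sources used here.

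The BMDM tables hold estimated counts per gene and TPM made by the authors, and 75.2% to 76.6% of the estimated counts above 0 were whole. They were rounded to whole counts before testing, and TPM was used only to compare levels between genes. Rows without a gene name (431, 431 and 2 in the 3 tables) were left out. The Raw264.7 tables hold deposited values that scale each library's reads by 1 factor (unit: signal), and whole reads were recovered from the steps between values. Within a tolerance of 0.02 of a read, 100% of the values came out whole, except for Zmynd8 in the Zmynd8 KO library. Columns of the authors' own fold changes and p-values were not used, nor were 2 columns of per-sample values that match no label. The other 35 samples were not analysed here.

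A feature was tested when its mean over both libraries was at least 10. It was called when its ratio was at least 1.2-fold (genotype or line) or 2-fold (treatment) and its 95% Clopper-Pearson limits excluded a ratio of 1. The fold of 1.2 is given in the study's methods, while a figure legend puts it on the log2 scale, and counts at a fold of 2 are given too. A library at 0 was set to a floor of 3 counts. BMDM counts were scaled by library totals and Raw264.7 ratios use the deposited values. Limits and floors cover counting error only: reads carry no molecular identifiers, and the spread between animals or cultures was not measured. Alternatives were other folds, filters and scalings, log2 values with a pseudocount of 1, the fold alone, and the edgeR exact test with a dispersion set by assumption (biological coefficient of variation 0.2) and a Benjamini-Hochberg adjusted p under 0.05.

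Members were sorted by role. Members of the TRIM5-like cluster, innate sensing and TIF1 lists with a mean of at least 100 counts are named where a comparison turns on them, with up to 5 called members at each end of a comparison that reach a mean of 100. Trim3, Trim29, Trim34b, Trim46 and the low-count values of other members were chosen after their values were seen. Members and lists were chosen with earlier results of these data known. Promoters come from RefSeq (GRCm38.p6). Shared stretches are the 50-base words of a gene's RefSeq transcripts found in another gene. Python 3.11.15, numpy 2.4.6, pandas 2.3.3, scipy 1.17.1, matplotlib 3.10.9, R 4.3.3 and edgeR 4.0.16 were used.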

Additional observations from a re-analysis of the deposited data

Results flagged for a closer look

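For 15 members, 19 pairs of states had called cKO to WT ratios of opposite sign, always lower in cKO at M0 and higher in the other state: 9 between M0 and M1, 10 between M0 and M2 and 0 between M1 and M2. These were 23.1% of the 39 members tested in both M0 and M1 and 25% of the 40 tested in both M0 and M2. Of all genes tested in both states, 11.3% were lower at M0 and higher at M1 (14.9% opposite in either direction), and 4.16% were lower at M0 and higher at M2 (6.16% in either direction). With 1 library per group the difference was not tested, and all 19 share the pair of M0 libraries. Differences below are log2 ratios of the later named state minus that of M0.

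Between M0 and M2 the difference was 3.46 for Trim30c, 2.86 for Trim30b, 2.86 for Trim30d, 2.43 for Trim30a, 1.63 for Trim34a, 1.61 for Trim56, 1.47 for Trim12c, 1.47 for Trim21, 1.14 for Trim12a and 0.66 for Trim35. All of these but Trim56, Trim21 and Trim35 lie in the TRIM5-like cluster.

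Between M0 and M1 the difference was 2.28 for Trim30d, 2.27 for Trim36, 1.95 for Trim5, 1.67 for Trim56, 1.52 for Trim33, 1.41 for Trim12c, 1.24 for Trim44, 1.2 for Trim23 and 0.63 for Trim35. With median-ratio factors Trim30d and Trim12c were not called at M1. Trim33, Trim44, Trim23, Trim35 and Trim36 are outside the cluster and the innate sensing list.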

How the results depend on the processing

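No paired analysis was possible because each group has 1 library. For the same reason no library could be left out. Of 88 recomputed counts of called members, 71 were within 1.5 times the value given above and 17 were not. At a fold of at least 2, the count was 10 at M0, 1 at M1, 1 at M2, 1 for D/E-A, 1 for the Zmynd8 KO, 8 for K122R and 0 for the p65 KO. At a fold of at least 1.2, IL-4 gave 21 members in WT and 28 in cKO. The edgeR exact test with an assumed dispersion called 4 members at M0, 0 at M1, 0 at M2, 0 for D/E-A, 0 for the Zmynd8 KO, 1 for K122R and 0 for the p65 KO. The fold alone gave 14 for the p65 KO. A stricter fold or an added dispersion leaves fewer calls by construction. Median-ratio or TMM factors, a mean of at least 50, no filter and a pseudocount moved no total of both directions by over 1.5 times. The split moved: with median-ratio factors it went from 8 higher and 18 lower to 14 and 9 for LPS in WT, from 14 and 12 to 15 and 6 for LPS in cKO, and from 11 and 2 to 9 and 4 for genotype at M1. Of 591 recomputed ratios of called members, 450 moved by no more than their counting limits and 141 moved further. By construction none could turn a direction, since the scalings shifted ratios by less than a call requires and a pseudocount only draws them toward 0. Depth limits what can be seen for the 17 members with a mean between 0 and 10 counts.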

Other observations

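The TRIM genes that carry other names behaved as follows. Mid1, a microtubule-bound ligase, rose with both stimuli, from 425 to 1666 counts with LPS and to 2108 with IL-4 in WT (log2 2.04 and 2.20), and from 338 to 1554 and 2344 counts in cKO (log2 2.15 and 2.58). Pml rose with LPS in both genotypes (log2 1.94 in WT and 2.99 in cKO). After IL-4 it fell in WT, from 2464 to 1257 counts (log2 -1.09), and in cKO it was under the fold (log2 0.51).

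Markers of other cell types were also summed. Dendritic cell markers came to 0.75 to 16 CPM in the BMDM libraries and to 30.6 to 174 RPM in the lines, B cell markers to at most 0.55 CPM and 147 RPM, and T cell markers to 3.94 to 29.1 CPM and at most 19.4 RPM. In the lines the lower values of all 3 lists were in the p65 set. Reads of the ribosomal RNA gene Rn18s-rs5 numbered 28068 to 84832 in the p65 lines, against 1166166 to 2526916 in the Zmynd8 lines.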
